A study of Mus musculus with 12 samples.

Results

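The Adamts, Adamtsl, Mmp and Timp genes encode secreted or membrane-bound enzymes that cut the extracellular matrix, relatives of those enzymes that lack the catalytic part, and their inhibitors. Genes were taken by symbol, as Adamts, Adamtsl, Mmp or Timp followed directly by a number, and each was read through a probe set of that gene alone, selected on the highest mean value over the 12 arrays. This gave 42 of the 18193 genes measured, with 15 Adamts, 5 Adamtsl, 18 Mmp and 4 Timp genes. They rested on 78 probe sets, since 21 of the genes had several. This mean value, by which the probe sets were chosen, ran from 2.91 for Mmp13 to 12 for Mmp2 on the log2 scale and is given as description.

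The arrays compared mouse gonads with and without Cbx2, a chromobox subunit of Polycomb repressive complex 1, at E11.5, the embryonic day when the XX and XY gonads begin to diverge. Gonadal cells were laser-captured from frozen sections, and each array held amplified RNA from a pool of 2 or 3 embryos. The 4 groups of 3 arrays combined genotype with chromosomal sex (KO or WT, XX or XY), where KO stands for Cbx2 knockout embryos from crosses between heterozygotes and WT for wild-type embryos. P-values therefore measure the spread between pools, not between embryos. The sources used here do not describe the structure of the knockout allele.

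The WT arrays carry a source description that names the KO XX group, against their titles and genotype field. KO and WT follow the latter throughout, and every direction rests on them. Xist and the Y-linked gene Eif2s3y matched the labelled sex on all 12 arrays. Cbx2 gave group means of 9.34 in KO XX and 9.45 in KO XY against 8.60 in WT XX and 8.93 in WT XY. Its probe set was thus higher in the KO arrays, and without the allele's structure it does not check the genotype labels. The gonadal genes Gata4, Nr5a1 and Wt1 had signal on every array. Gata4, the gene whose protein guided the capture, lay at 7.34 to 7.72 in KO and at 8.61 to 9.29 in WT arrays. Correlations between arrays ran from 0.974 to 0.996, and WT XX replicate 1 departed most from its group. The 3' minus 5' difference of the Gapdh control probes, which rises as RNA is shorter, was 4.91 ± 0.12 in KO XY and 4.05 ± 0.22 in KO XX, with 4.13 ± 0.38 in the XY and 4.30 ± 0.45 in the XX arrays of WT (log2, SD, n = 3).

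ADAMTS proteases trim proteoglycans such as versican, procollagens and microfibril proteins, and the ADAMTS-like proteins bind the matrix without cutting it. Matrix metalloproteinases cut collagens, gelatins, laminins and many cell surface proteins, and are made as inactive precursors. TIMPs block their active sites, and TIMP2 also takes part in the activation of proMMP2 by MMP14 at the cell surface. In the early gonad, matrix lies beneath the coelomic epithelium, around mesenchymal cells and along vessels, where cells of several kinds move and settle.

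Averaged over both sexes, 18 of the 42 genes changed in the knockout by limma's test (Benjamini-Hochberg adjusted p under 0.05 over all 18193 genes), 16 of them higher and 2 lower. That was 42.9% of the family members, against 23.8% of all genes. By direction, 38.1% of the members were higher and 4.76% lower, against 13.4% and 10.3% of all genes. The largest rises were in Adamtsl4, Adamts3 and Adamts20, and the falls were in Adamts16 and Timp1. The median difference over the 42 genes was 0.13 (log2, KO minus WT), against -0.01 over all genes. All 6 KO arrays lay apart from all 6 WT arrays in 13 of the 42 genes, against 11.2% of all genes. In 11 of these the KO arrays were the higher ones, against 6.22% of all genes. In such captured tissue, fewer cells of a type and less RNA per cell cannot be told apart.

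Within XY, 14 members changed, 12 higher and 2 lower (33.3%, against 13.3% of all genes called, 6.56% higher and 6.75% lower). Within XX, 15 changed, 13 higher and 2 lower (35.7%, against 13.7% of all genes, 8.30% higher and 5.40% lower). The median difference of the 42 genes was 0.18 in XY and 0.04 in XX, against 0.01 and -0.02 over all genes. Both sexes shared 10 of the higher genes, which were 83.3% of those called in XY and 76.9% of those called in XX, and both lower genes. The 2 comparisons use different arrays but 1 shared estimate of the spread. The overlap of calls over all genes is not given here, so these shares are not shown to be particular to the family.

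**Figure D1:**
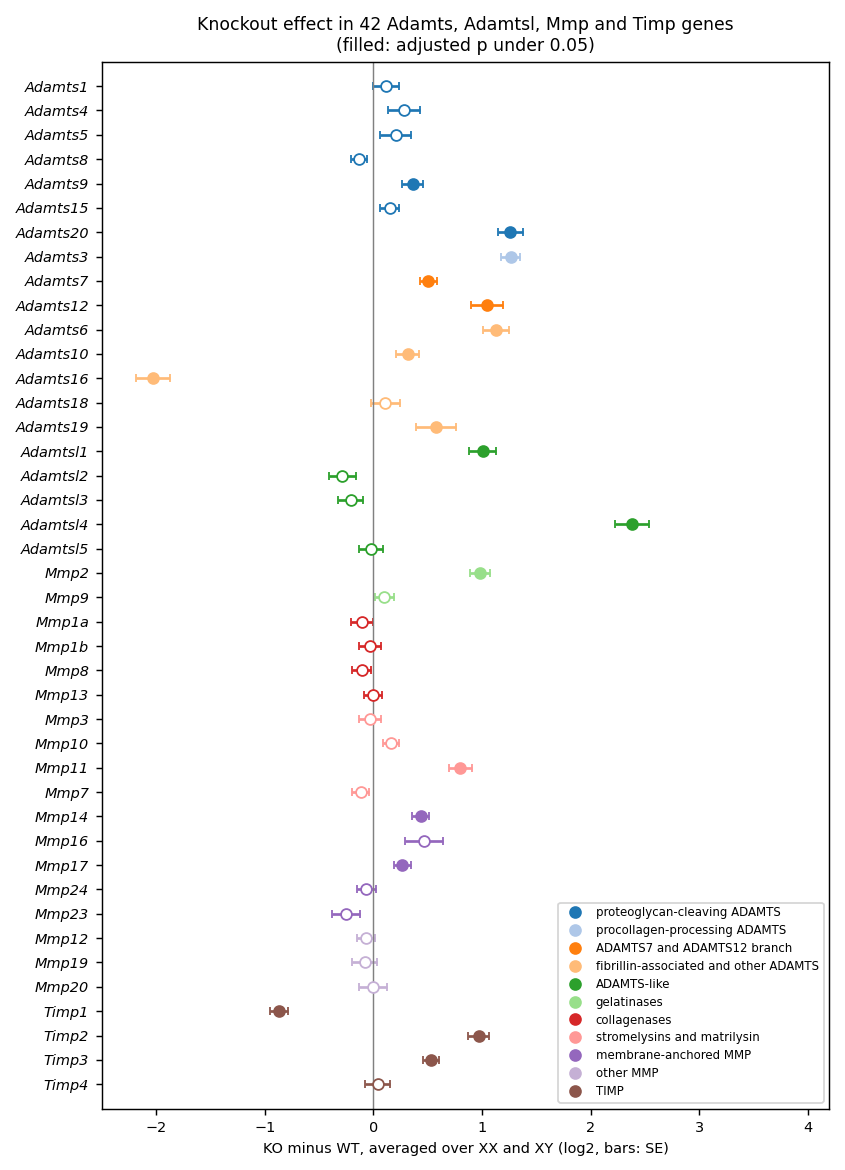
Each point is the difference KO minus WT averaged over XX and XY (x axis, log2) of 1 of the 42 genes (y axis), coloured by role, with its standard error, and filled where the limma adjusted p was under 0.05. The 18 filled points hold 16 to the right of 0 and 2 to its left, Adamts16 and Timp1, and no collagenase is filled.

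Promoter windows of 250 bases before the start site, from RefSeq on GRCm38.p6, are shown for the gene with the largest rise, for the next pair of rising genes and for Timp1, whose fall opposed theirs. CG pairs, the sites of DNA methylation and a mark of promoters to which Polycomb complexes can be recruited, are in capitals.
Adamtsl4 chr3:95687918-95688167, minus strand: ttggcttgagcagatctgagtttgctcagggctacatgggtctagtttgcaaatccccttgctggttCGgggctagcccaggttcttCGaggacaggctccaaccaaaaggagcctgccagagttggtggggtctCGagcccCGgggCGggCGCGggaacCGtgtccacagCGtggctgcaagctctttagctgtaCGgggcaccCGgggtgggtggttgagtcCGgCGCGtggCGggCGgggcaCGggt
Adamts3 chr5:89883335-89883584, minus strand: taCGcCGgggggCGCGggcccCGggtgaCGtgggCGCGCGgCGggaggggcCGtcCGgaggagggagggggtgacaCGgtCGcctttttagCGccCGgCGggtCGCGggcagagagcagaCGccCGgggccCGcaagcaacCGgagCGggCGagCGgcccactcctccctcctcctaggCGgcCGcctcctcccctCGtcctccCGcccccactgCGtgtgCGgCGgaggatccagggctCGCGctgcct
Adamts20 chr15:94404351-94404600, minus strand: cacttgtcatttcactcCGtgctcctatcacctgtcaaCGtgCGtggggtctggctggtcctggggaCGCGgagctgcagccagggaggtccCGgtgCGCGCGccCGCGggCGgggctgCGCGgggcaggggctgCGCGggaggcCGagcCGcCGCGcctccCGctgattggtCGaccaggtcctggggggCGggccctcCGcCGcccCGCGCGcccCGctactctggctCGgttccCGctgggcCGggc
Timp1 chrX:20869916-20870165, plus strand: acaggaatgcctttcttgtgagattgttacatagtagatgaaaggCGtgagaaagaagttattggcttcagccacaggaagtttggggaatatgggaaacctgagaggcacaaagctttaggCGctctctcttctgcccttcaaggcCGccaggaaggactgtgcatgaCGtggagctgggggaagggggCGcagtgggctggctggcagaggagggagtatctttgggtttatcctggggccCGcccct
The windows hold 17 CG pairs for Adamtsl4, 35 for Adamts3, 32 for Adamts20 and 6 for Timp1. The median over all 32851 windows was 6. The rising gene Adamts12 also held 6 CG pairs, the same as Timp1, and no window was matched for Adamts16.

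A window was found for 27 of the 42 genes. Among the 10 that changed in the average, CG pairs had a median of 17.5 (6 to 35), and among the 17 that did not, 4 (0 to 39). This contrast went together with gene position. The 9 measured genes of the Mmp cluster on chromosome 9, where neighbouring Mmp genes are separated by at most 2 others, had a median of 1 (0 to 7), and none changed in the average. All of them but Mmp7 also had a mean under 6 over the 12 arrays. The parts of position and low signal were not tested. The 8 remaining genes that did not change had a median of 16.5 (2 to 39), close to that of the changed genes. The letters TGANTCA, read on both strands and known as an AP-1 binding motif, stood in the windows of 8 genes, all of that cluster (Mmp1a, Mmp1b, Mmp3, Mmp7, Mmp10, Mmp12, Mmp13 and Mmp20), and in 6.75% of all windows. The letters GATAA, which GATA factors can bind, stood in the windows of Timp1, Mmp7, Mmp12 and Mmp24 and in 22.6% of all windows. The letters AAGGTCA, a motif of the NR5A1 kind, stood in those of Adamtsl5 and Mmp1a and in 4.08% of all windows. Such matches are a description of the letters only.

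The ADAMTS-like genes held the widest rise. Adamtsl4 encodes a protein of fibrillin microfibrils, whose loss in people displaces the lens of the eye. Its level was 6.62, 7.42 and 7.47 in KO XX and 7.36, 7.31 and 7.52 in KO XY, against 5.13, 4.76 and 5.30 in WT XX and 4.64, 5.14 and 4.43 in WT XY (log2 RMA value). Every KO array lay above every WT array, and the lowest KO array, KO XX replicate 1, stood apart from the other KO arrays. The difference was 2.66 ± 0.22 in XY (6.34-fold, adjusted p = 2.01e-06) and 2.10 ± 0.22 in XX (4.30-fold, adjusted p = 1.97e-05, limma).

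Adamtsl1, which encodes the matrix protein punctin, gave 6.39, 5.91 and 5.71 in KO XX, 5.83, 5.95 and 6.18 in KO XY, 5.03, 5.08 and 5.14 in WT XX and 5.25, 4.66 and 4.77 in WT XY. The KO and WT arrays did not overlap in either sex. The difference was 1.09 ± 0.18 in XY (adjusted p = 0.000682) and 0.92 ± 0.18 in XX (adjusted p = 0.00274). Its other probe sets were not called, and with the mean of all its sets the difference was 0.48 in XY and 0.42 in XX, so its size rests on 1 set. Adamtsl2, Adamtsl3 and Adamtsl5 did not pass the test, with averaged differences from -0.29 to -0.02.

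Among the 7 proteoglycan-cleaving ADAMTS genes, Adamts20 and Adamts9 were higher in the average and 5 did not pass. The share called was near the 23.8% of all genes. Adamts20, which is mutated in belted mice and is needed for melanoblast survival, gave 8.56, 8.51 and 8.62 in KO XX, 9.01, 8.46 and 9.10 in KO XY, 7.31, 7.34 and 6.95 in WT XX and 7.70, 7.80 and 7.58 in WT XY. All KO arrays lay above all WT arrays, by 1.16 ± 0.16 in XY (2.23-fold, adjusted p = 0.000159) and 1.36 ± 0.16 in XX (2.58-fold, adjusted p = 4.28e-05). The versicanase gene Adamts9 passed in XX, at 0.59 ± 0.14 (adjusted p = 0.00939), and in XY the difference was 0.14 (adjusted p = 0.602). Another of its probe sets read lower in the knockout, at -0.60 ± 0.16 in the average (adjusted p = 0.0174), so the direction of Adamts9 depends on the probe set. Adamts1, Adamts4 and Adamts5, which cut aggrecan and versican, had averaged differences of 0.12, 0.28 and 0.20 and did not pass, nor did Adamts8 and Adamts15. The other Adamts4 probe set, with a mean of 5.92, was called higher in the average, at 0.48 ± 0.11 (adjusted p = 0.00638). So was the mean of its 2 sets, at 0.38 ± 0.10 (adjusted p = 0.0119).

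Adamts3, a protease that trims procollagen and the lymphatic growth factor VEGFC, rose in both sexes. Its level was 8.06, 7.98 and 8.01 in KO XX, 7.80, 7.61 and 7.77 in KO XY, 6.40, 6.78 and 6.61 in WT XX and 6.66, 6.76 and 6.44 in WT XY. Every KO array lay above every WT array, and the KO XX arrays lay above the KO XY arrays. The difference was 1.42 ± 0.12 in XX (2.68-fold, adjusted p = 3.4e-06) and 1.11 ± 0.12 in XY (2.15-fold, adjusted p = 2.75e-05).

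Adamts7 and Adamts12 form a branch of proteases known to cut cartilage oligomeric matrix protein. Adamts12 gave 8.56, 9.0 and 8.81 in KO XX, 8.95, 8.23 and 9.04 in KO XY, 8.13, 7.46 and 7.57 in WT XX and 7.82, 7.61 and 7.74 in WT XY. The groups did not overlap, although WT XX replicate 1 came close to KO XY replicate 2. Adamts12 rose by 1.02 ± 0.21 in XY (adjusted p = 0.00408) and 1.07 ± 0.21 in XX (adjusted p = 0.00301). Adamts7 rose by 0.79 ± 0.11 in XX (adjusted p = 0.000245), and in XY its difference was 0.23 (adjusted p = 0.217).

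Of the 5 ADAMTS genes grouped as fibrillin-associated or other, 3 rose and 1 fell in the average, against 13.4% and 10.3% of all genes. Adamts6, a relative of Adamts10 needed for heart development, gave 6.67, 6.55 and 6.41 in KO XX, 6.30, 6.07 and 6.39 in KO XY, 4.96, 5.18 and 5.68 in WT XX and 5.26, 5.49 and 5.03 in WT XY. The KO arrays all lay above the WT arrays, by 1.27 ± 0.17 in XX (2.41-fold, adjusted p = 0.000166) and 0.99 ± 0.17 in XY (1.99-fold, adjusted p = 0.00119). Adamts10, a fibrillin-binding protease, rose by 0.32 ± 0.10 (adjusted p = 0.0367) and Adamts19 by 0.58 ± 0.18 (adjusted p = 0.0351) in the average alone. The second Adamts10 probe set, with a mean of 5.77, gave 0.01 (limma adjusted p = 0.947). With the mean of its sets Adamts10 was not called, at 0.16 ± 0.07 (limma adjusted p = 0.138), so its rise rests on 1 set. The Adamts10 call was lost without KO XX replicate 1 or 3, KO XY replicate 1 or 3, WT XX replicate 2 or 3, or WT XY replicate 3 (adjusted p from 0.0522 to 0.102). That of Adamts19 was lost without KO XX replicate 1 or 2, KO XY replicate 1, WT XX replicate 1 or 2, or WT XY replicate 2 or 3 (adjusted p from 0.0573 to 0.0843). The signal of Adamts19 was low, with a mean of 4.54 over all arrays. Adamts18 did not pass, at 0.11.

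Adamts16 moved the other way and had the largest fall of the 42 genes. It encodes a fibronectin-cleaving protease expressed in the embryonic kidney and gonad, and rats with a disrupted copy have undescended testes. Its level was 5.90, 5.65 and 5.72 in KO XX and 5.75, 5.80 and 5.38 in KO XY, against 7.17, 7.68 and 7.47 in WT XX and 8.59, 7.55 and 7.93 in WT XY. All KO arrays lay below all WT arrays, and WT XY replicate 1 was the highest. The difference was -2.38 ± 0.22 in XY (5.20-fold, adjusted p = 4.01e-06) and -1.68 ± 0.22 in XX (3.21-fold, adjusted p = 0.000103). A second Adamts16 probe set, with a mean of 6.28 against 6.72 for the set used, had a smaller averaged difference, -0.27 ± 0.11 (adjusted p = 0.1). It was not called in XY (-0.15, adjusted p = 0.644) or in XX (-0.39, adjusted p = 0.131). Both the call and the size of the fall thus rest on 1 probe set.

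Among the 18 Mmp genes, 4 rose in the average and none fell, a share near the 23.8% of all genes called. The gelatinase gene Mmp2 gave 12.35, 12.56 and 12.60 in KO XX, 12.50, 12.26 and 12.70 in KO XY, 11.54, 11.27 and 11.51 in WT XX and 11.60, 11.68 and 11.48 in WT XY. The lowest KO array lay above the highest WT array. Mmp2 rose by 1.07 ± 0.13 in XX (2.09-fold, adjusted p = 7.56e-05) and 0.90 ± 0.13 in XY (1.86-fold, adjusted p = 0.000291), and its other probe set gave an averaged 1.03 ± 0.08. The second gelatinase gene, Mmp9, had values from 4.99 to 5.48 on all arrays and did not pass.

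Mmp14, the membrane-anchored activator of proMMP2, rose by 0.54 ± 0.11 in XX (adjusted p = 0.00508) and had a difference of 0.34 in XY (adjusted p = 0.0672). Averaged over both sexes it rose by 0.43 ± 0.08, with KO arrays from 9.90 to 10.14 and WT arrays from 9.30 to 9.70. Mmp17, which is anchored through a lipid tail, rose by 0.41 ± 0.11 in XY (adjusted p = 0.021). That Mmp17 call was lost without KO XY replicate 1 or 2, or any WT XY array (adjusted p from 0.0503 to 0.0947). The other membrane-anchored genes, Mmp16, Mmp23 and Mmp24, did not pass in the average. Mmp16 had a difference of 0.47 ± 0.17 (adjusted p = 0.0657), and its 3 WT XX arrays ran from 5.95 to 7.23. Other Mmp16 probe sets were called higher in the average, at 0.74 ± 0.22 (adjusted p = 0.0297) and 0.43 ± 0.11 (adjusted p = 0.0127). A dim one, with a mean of 3.12, was not, at 0.08 (adjusted p = 0.61). The mean of its 4 sets was called, at 0.43 ± 0.08 (adjusted p = 0.000938), so the lack of a call depends on the probe set.

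Mmp11, a stromelysin that furin activates inside the cell and that is typical of mesenchyme during tissue remodelling, rose by 0.93 ± 0.15 in XY (adjusted p = 0.000617) and 0.67 ± 0.15 in XX (adjusted p = 0.00697). KO arrays ran from 8.41 to 8.84 and WT arrays from 7.70 to 8.28. The stromelysin gene Mmp10 was called in XY alone, at 0.33 ± 0.10 (adjusted p = 0.0475), and lost its call without KO XX replicate 3, any KO XY array, WT XX replicate 2 or 3, or any WT XY array (adjusted p from 0.0552 to 0.175). No call was made for the other stromelysin and matrilysin genes Mmp3 and Mmp7, for the 4 collagenase genes Mmp1a, Mmp1b, Mmp8 and Mmp13, or for Mmp12, Mmp19 and Mmp20, in any of the 3 comparisons of genotype. Averaged differences of the collagenase genes ran from -0.10 to -0.003. Of the 24 genes without a call in the average, 16 had a mean under 6 on the log2 scale over the 12 arrays, near or below the array medians of 5.88 to 5.94. Low signal limits what these could show.

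Of the 4 inhibitor genes, 2 rose, 1 fell and 1 did not pass the test. In the average, 13.4% of all genes rose and 10.3% fell. Timp1, the X-linked inhibitor gene, gave 8.39, 8.54 and 8.68 in KO XX, 8.72, 8.47 and 8.72 in KO XY, 9.38, 9.31 and 9.18 in WT XX and 9.72, 9.57 and 9.57 in WT XY. All KO arrays lay below all WT arrays, by -0.98 ± 0.12 in XY (1.98-fold lower, adjusted p = 4.81e-05) and -0.75 ± 0.12 in XX (1.69-fold lower, adjusted p = 0.000509).

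Timp2, the inhibitor that bridges MMP14 and proMMP2, gave 10.68, 10.78 and 10.67 in KO XX, 10.35, 10.37 and 10.38 in KO XY, 9.27, 9.87 and 9.59 in WT XX and 9.69, 9.53 and 9.45 in WT XY. The KO arrays all lay above the WT arrays, and the KO XX arrays were the highest of these. Timp2 rose by 1.13 ± 0.14 in XX (2.19-fold, adjusted p = 5.79e-05) and 0.81 ± 0.14 in XY (1.75-fold, adjusted p = 0.000899). Its other probe sets gave averaged differences of 0.085 to 0.655, against 0.97 for the set used, so the size depends on the probe set.

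Timp3, the matrix-bound inhibitor that also blocks ADAMTS enzymes, gave 8.97, 8.84 and 8.89 in KO XX, 8.77, 8.61 and 8.88 in KO XY, 8.29, 8.07 and 8.25 in WT XX and 8.30, 8.41 and 8.45 in WT XY. The groups did not overlap. Timp3 rose by 0.69 ± 0.11 in XX (adjusted p = 0.000577) and 0.37 ± 0.11 in XY (adjusted p = 0.038). The XY call was lost when KO XY replicate 1 or 3, or any WT XY array, was left out, with adjusted p from 0.0736 to 0.154.

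Timp4 gave 4.89, 5.24 and 5.13 in KO XX, 4.94, 5.49 and 4.81 in KO XY, 4.83, 5.21 and 5.0 in WT XX and 5.13, 5.14 and 4.96 in WT XY. Its groups overlapped, and the differences of 0.01 in XY and 0.07 in XX did not pass. The RNAs of Mmp14, Mmp2 and Timp2, whose products meet in the activation of proMMP2, were all higher in the average, while that of Timp1 was lower. The arrays measured RNA and not enzyme activity.

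**Figure D2:**
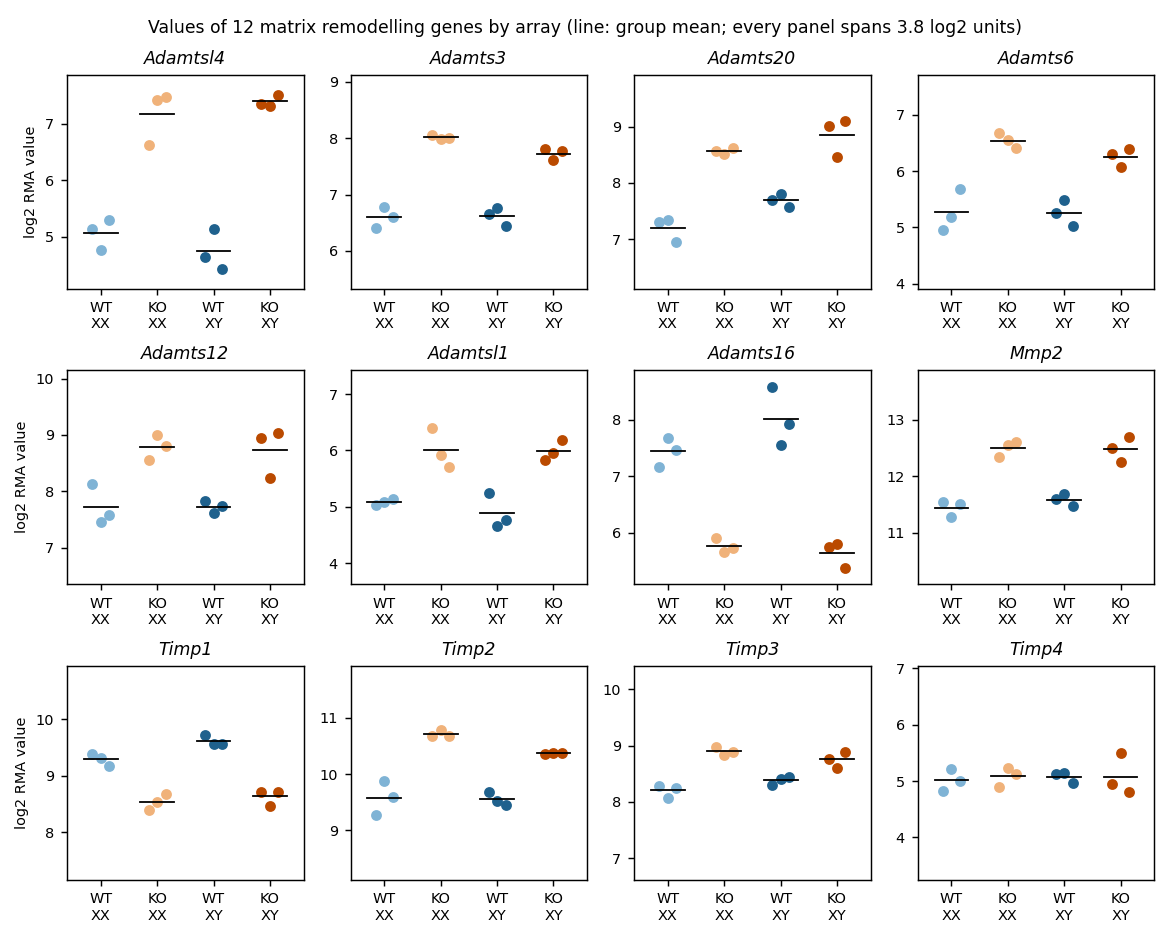
Points are single arrays (3 per group) and lines group means of the log2 RMA value (y axis) for 12 genes in WT XX, KO XX, WT XY and KO XY (x axis). KO points lie above WT points in every panel except Adamts16 and Timp1, where they lie below, and Timp4, where they mix.

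The XY results carry a measured limit. KO XY arrays had the highest Gapdh 3' minus 5' difference, from 4.78 to 5.0, against 3.89 to 4.57 in WT XY. With that difference as a covariate 8 members were called in XY, 6 higher and 2 lower (4.29% of all genes called). Adamts6 (0.46 ± 0.17, adjusted p = 0.193), Mmp11 (0.60 ± 0.19, adjusted p = 0.106) and Mmp17 (0.27 ± 0.16, adjusted p = 0.542) then had smaller XY differences and lost their calls. Timp2 (0.66 ± 0.20, adjusted p = 0.0866), Timp3 (0.35 ± 0.17, adjusted p = 0.399) and Mmp10 (0.37 ± 0.16, adjusted p = 0.297) also lost them, with differences nearer to those without the covariate and larger standard errors. Adamts3, Adamts12, Adamts16, Adamts20, Adamtsl1, Adamtsl4, Mmp2 and Timp1 kept theirs under every setting that included them. The filter on means under 6 leaves out Adamts6 and Adamtsl1, which were therefore not tried under it. In XX, 14 of the 15 calls held under every setting that included the gene, all but that of Adamts9. In the average, the covariate left 16 members called, 14 higher and 2 lower (17.5% of all genes called). Adamts19 (0.50 ± 0.20, limma adjusted p = 0.116) and Mmp17 (0.22 ± 0.08, limma adjusted p = 0.091) lost their calls there.

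The sexes were compared directly as well. No member was called between XY and XX in WT (limma, 0 of 42, against 0.0605% of all genes) or in KO (0 of 42, against 0.0330%). An unadjusted p under 0.05 was met by 6 members in WT and 4 in KO, against 10.4% and 10% of all genes. The smallest adjusted p was 0.449 in WT, for Adamts7, and 0.421 in KO, for Mmp10. The difference of the knockout effect between the sexes was not called for any member (0 of 42, against 0.00550% of all genes). Unadjusted, 4 members had a p under 0.05 there, against 6.45% of all genes. Adamts7 had the smallest p there, with an effect lower in XY than in XX by -0.56 ± 0.16 (limma adjusted p = 0.751), and Adamts16 differed by -0.70 ± 0.31 (limma adjusted p = 0.758). A call in 1 sex alone, as for Adamts7, Adamts9, Mmp10, Mmp14 and Mmp17, is thus not shown to be a difference between the sexes.

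The WT comparison of the sexes turned on 1 array. With WT XX replicate 1 left out, Adamts4 was called lower in XY by -0.66 ± 0.20 (adjusted p = 0.0449) and Adamts7 higher by 0.44 ± 0.12 (adjusted p = 0.0368), while 10.3% of all genes were called. Leaving out any of the other 11 arrays gave no call. With array weights, Adamts20 and Adamts7 were called, along with 6.55% of all genes.

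**Figure D3:**
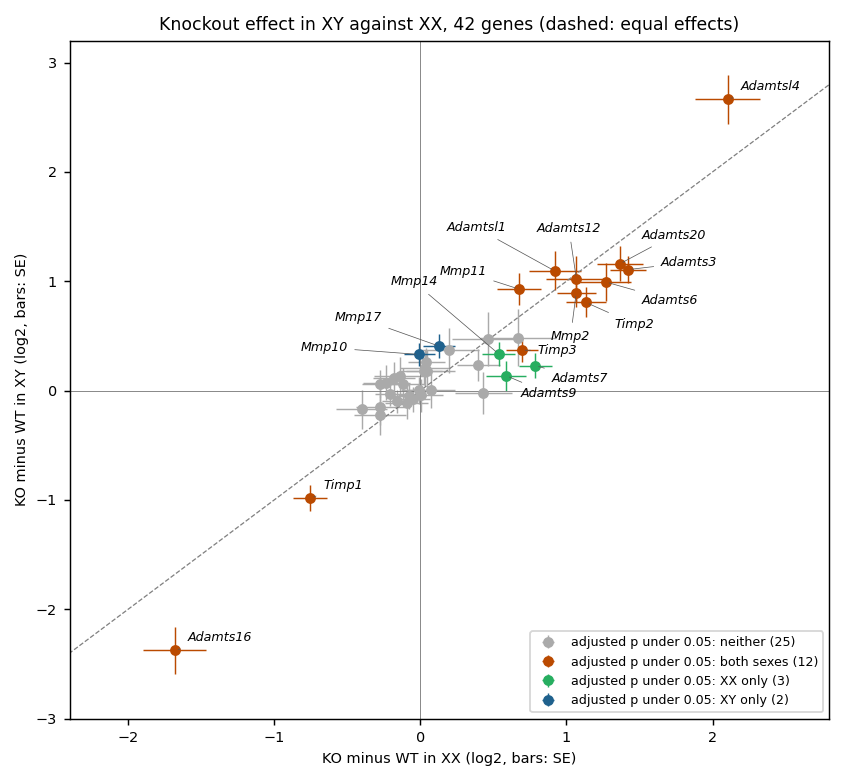
Each point is 1 of the 42 genes, placed by its KO minus WT difference in XX (x axis, log2) and in XY (y axis, log2), with standard errors and a dashed line of equal effects. Genes called in both sexes number 12, in XX alone 3 and in XY alone 2, and none was called in opposite directions.

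Several probe sets measured 11 of the 18 changed genes, and they add a reading of the same RNA pools. Of their 20 other probe sets, 7 were called in the same direction, 1 in the opposite direction and 12 were not called, where 20.3% of all 34945 single-gene probe sets were called in the average. Adamts6's other set gave 1.21 and Mmp2's 1.03. For Timp2, 2 of 5 other sets were called, with differences from 0.09 to 0.65, and for Timp3, 2 of 3, from 0.30 to 0.87. The brightest other Timp2 set, with a mean of 9.31, was not called, at 0.17 ± 0.09 (limma adjusted p = 0.192). The other sets of Adamts3 and Adamts12, with low means of 3.73 and 2.95, gave -0.02 and 0.08. Adamtsl1's second set, with a mean of 5.37 close to the 5.49 of the set used, gave 0.08 (adjusted p = 0.569). Where a gene's probe sets were averaged, the KO minus WT difference was 0.45 for Adamtsl1, 0.62 for Adamts3, 0.56 for Adamts12, -1.15 for Adamts16 and 0.39 for Timp2, each smaller than with the set used and still called. Adamts9 was the gene whose other set was called the other way.

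**Figure D4:**
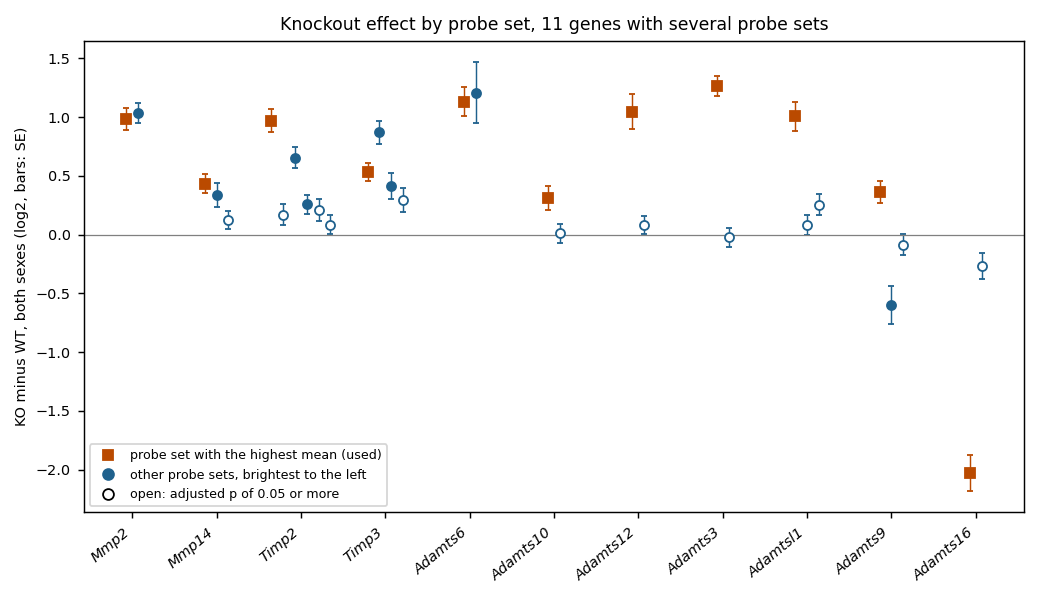
KO minus WT difference averaged over the sexes (y axis, log2, with standard error) for every probe set of the 11 changed genes with several (x axis). Squares are the sets used, circles the others, and open marks were not called. Mmp2 and Adamts6 sets lie together, whereas Adamts9 has a called set on each side of 0.

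The genes beside the changed members were read from the RefSeq order. Of the 36 nearest measured neighbours of the 18 genes, 5 were called in the same direction, 4 in the opposite one, and 27 were not called. With 23.8% of all genes called in the average, that share was near the background. Adamtsl4 and the directly adjacent Ecm1, a gene for a secreted glycoprotein that binds matrix proteins, both rose, by 2.38 ± 0.16 and 3.01 ± 0.11. The other neighbours called in the same direction were Isoc1 and Minar2 beside Adamts19, Prickle1 beside Adamts20 and Prickle2 beside Adamts9. None of the neighbours of Adamts16 was called.

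Further matrix genes were taken from lists that, like the members, were chosen with earlier results known, so their counts are no independent evidence of direction. Over all genes, 13.4% rose and 10.3% fell in the average. Of 28 genes for proteoglycans, fibre and basement membrane proteins, which are among the substrates, 20 rose and 1 fell in the average (median 0.62, against -0.01 over all genes). Ecm1 rose by 3.01, the microfibril gene Efemp1 by 1.99 ± 0.15, the collagen-binding Fmod by 1.59 ± 0.13 and the versican gene Vcan by 1.51 ± 0.12, while Thbs1 fell by 0.67. Of 12 collagen-modifying and crosslinking genes, 8 rose and none fell (median 0.46), led by the transglutaminase gene Tgm2 at 2.59 ± 0.16 and the lysyl hydroxylase gene Plod2 at 1.22 ± 0.12. P4ha2 and Plod1 rose by 0.66 ± 0.10 and 0.47 ± 0.09.

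Activators and other proteases were mixed. Of 23 genes, 6 rose and 4 fell (median 0.13), against 13.4% and 10.3% of all genes. The plasminogen activator gene Plat rose by 1.18 ± 0.12 and Adam19 by 0.62 ± 0.09, whereas the secreted serine protease gene Htra1 fell by 1.56 ± 0.13 and the proprotein convertase gene Pcsk6 by 0.98 ± 0.08. Of 15 genes listed as other protease inhibitors, 4 rose and 3 fell (median -0.01). The list also holds genes that encode no inhibitor, among them the collagen chaperone gene Serpinh1, which rose by 0.46 ± 0.15, and the procollagen protease enhancer gene Pcolce, which fell by 0.42 ± 0.10. Reck, which restrains several MMPs at the membrane, rose by 0.73 ± 0.12 and Serping1 by 0.99 ± 0.08, while Spint2 fell by 1.41 ± 0.09 and Papln by 0.60 ± 0.13.

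Markers of several cell types that a gonad capture can hold moved with genotype too. In the average, 13.4% of all genes rose and 10.3% fell, and these lists were also chosen with earlier results known. Of 9 interstitial mesenchyme markers, 7 rose and none fell in the average (median 0.93). Their summed level was 15.15 to 15.30 in KO XX and 15.07 to 15.13 in KO XY, against 14 to 14.35 in WT XX and 14.19 to 14.40 in WT XY (log2 of the sum). Fibrillar collagen genes, themselves matrix genes, are among these markers. RMA values have no true zero, so no marker of any list can be placed at 0.

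Of 9 coelomic epithelium markers, 5 rose and 2 fell (median 0.94), with summed levels of 13.15 to 13.50 in KO XX, 13.18 to 13.20 in KO XY, 12.29 to 12.69 in WT XX and 12.58 to 12.73 in WT XY. Of 6 gonadal somatic cell markers, none rose and 4 fell (median -1.27), with 12.60 to 13.11 in KO XX, 12.79 to 12.94 in KO XY, 13.51 to 13.68 in WT XX and 13.64 to 13.77 in WT XY. On this summed scale, which bright markers dominate, the KO and WT ranges of each list were apart. The mean log2 level of the coelomic list overlapped, at 8.57 to 8.70 in KO XY and 8.54 to 8.63 in WT XY. Its falling markers were Aldh1a1, at -4.70 ± 0.20, and Krt8, at -1.49 ± 0.12.

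Of 14 endothelial markers, none rose and 12 fell (median -0.73), with 11.31 to 11.89 in KO XX, 11.24 to 11.65 in KO XY, 11.85 to 12.14 in WT XX and 12.05 to 12.20 in WT XY. Of 12 macrophage markers, 6 rose and none fell (median 0.41), with 11.30 to 12.21 in KO XX, 11.64 to 11.72 in KO XY, 10.90 to 11.42 in WT XX and 10.88 to 11.22 in WT XY. On the summed scale the KO XX and WT XX ranges of both lists overlapped, and the XY ranges did not. By mean log2 level the XX ranges were apart as well, with endothelial markers at 6.78 to 7.40 in KO and 7.53 to 7.73 in WT, and macrophage markers at 6.82 to 7.47 and 6.43 to 6.72. Of 10 neutrophil and granulocyte markers, 5 rose and none fell (median 0.38). Of 7 mesonephros markers, 1 rose and 3 fell (median -0.10). Their summed levels were 8.26 to 8.75 in KO XX and 8.23 to 8.34 in KO XY. In WT XX they were 9.07 to 9.96 and in WT XY 10.06 to 10.24. By mean log2 level the XX ranges of this list overlapped, at 5.21 to 5.61 in KO and 5.52 to 5.72 in WT. Its XY ranges were apart, at 5.22 to 5.35 and 5.79 to 5.89. Of 9 germ cell markers 4 rose and none fell (median 0.34), of 5 neural markers 1 rose, and of 8 erythroid markers none was called. The neural and erythroid shares were not above the 23.8% of all genes called in the average. The part of these cell types in the changes of the Adamts, Mmp and Timp genes was not tested.

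**Figure D5:**
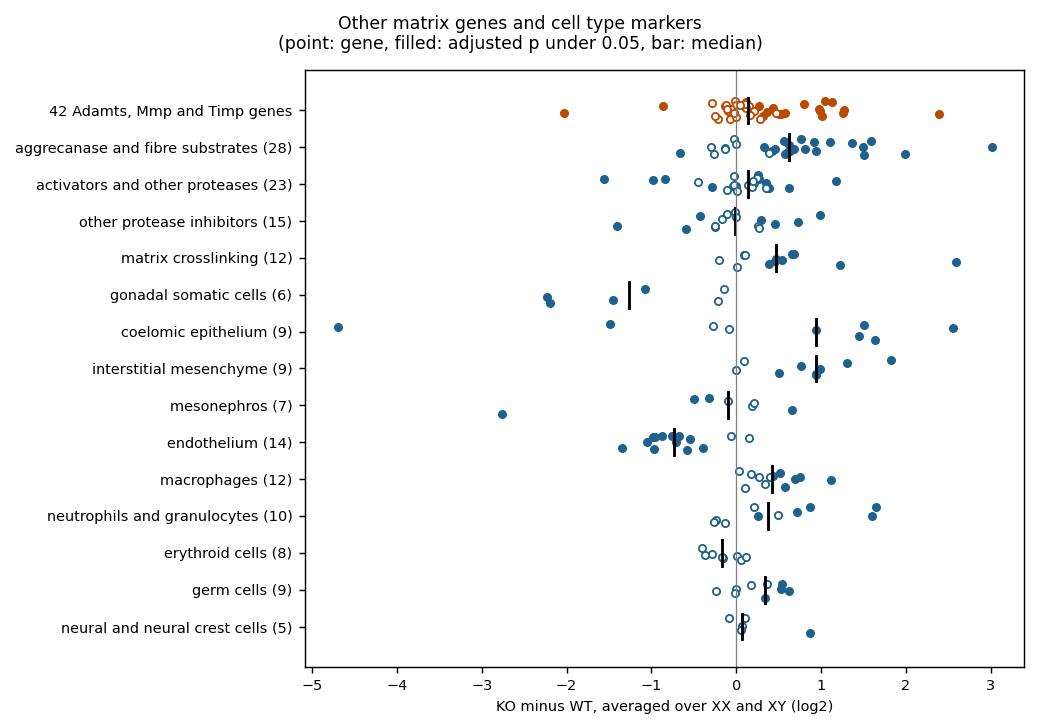
Each point is a gene of the list named on the y axis, at its KO minus WT difference averaged over the sexes (x axis, log2), filled where the limma adjusted p was under 0.05, with a bar at the list's median (vertical scatter has no meaning). The substrate, crosslinking and mesenchyme lists have medians of 0.62, 0.46 and 0.93, the gonadal somatic and endothelial lists of -1.27 and -0.73.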

How the data were processed

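Values were log2 expression values deposited by the authors for 45101 probe sets on 12 arrays. RMA corrects background, quantile-normalizes and summarises probes. Per the submitters' processing notes, Affymetrix Expression Console, RMA and affy were used, with versions not given in the sources used here. Values ran from 2.37 to 15 and were used as given. Of the probe sets, 64 were controls, 34945 had a single gene in the platform annotation, 932 several and 9160 none. All 42 members matched RefSeq symbols by gene identifier. Of 51 RefSeq symbols of these families, 9 were not analysed here.

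Group means of all 12 arrays were fitted with limma 3.58.1 (lmFit, eBayes) in R 4.3.3, with 8 residual degrees of freedom, and 6 two-sided contrasts were tested. A gene was called at a Benjamini-Hochberg adjusted p under 0.05 over 18193 genes. Differences are given with standard errors. Deviations of same-numbered WT XX and WT XY arrays were weakly correlated (r = 0.23, 0.10 and 0.11), and these arrays were not always each other's closest match. The replicate block changed no call between them. Precision is limited by the number of arrays. The fit was tested on simulated data.

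Members and gene lists were chosen with earlier results of these data known. Every array is given for members with a called log2 change of at least 1 in a genotype contrast and for Timp1 to Timp4, and up to 4 called genes of each matrix list are named by smallest p. Outside that rule, Thbs1, Serpinh1, Pcolce, Aldh1a1, Krt8 and the neighbours of members were named after their values were seen. Alternatives covered normalization, centring, a mean of at least 6, probe set choice, array weights, the variance prior, the groups fitted, a replicate block, the Gapdh covariate, an adjusted p under 0.01 and leaving out each array. Promoter windows came from RefSeq (GRCm38.p6), and neighbours from its gene order.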

Additional observations from a re-analysis of the deposited data

How the results depend on the processing

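Called members numbered 8 in XY with the Gapdh covariate (4.29% of all genes called), against 14 without it (13.3%). Between XY and XX in WT, 2 were called with array weights (6.55% of all genes) and 2 without WT XX replicate 1 (10.3%), against 0. Leaving out each array in turn gave 11 to 15 in XY, 15 to 17 in XX, 15 to 19 in the average, 0 to 2 between the sexes in WT, and 0 between the sexes in KO and for the interaction. The share of all genes called then ran from 8.78% to 18.7% in XY, 10.3% to 13.4% in XX and 19.2% to 24.2% in the average. The remaining settings kept these counts within 1.5 times. Adamts9 reversed with its most variable probe set, to -0.85 in XY (limma adjusted p = 0.0253), -0.34 in XX (0.385) and -0.60 in the average (0.0165), and with the mean of its probe sets, to -0.11 in the average (0.411). Of its 3 probe sets, 1 was called higher, 1 lower and 1 was not called.

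The labels number replicates 1 to 3 in each group. Deviations of same-numbered arrays were positively correlated for all 3 numbers only between WT XX and WT XY. There the correlations were weak, and same-numbered arrays were not always the closest match. Between KO XY and WT XX they were 0.28, 0.22 and -0.095. For the comparisons of genotype the labels do not say whether same-numbered arrays were handled together, and correlations over 3 numbers cannot settle it. With replicate number as a block, 13 members were called in XY, 15 in XX and 19 in the average, and 0 in the other comparisons. The shares of all genes called in the first 3 were 14.1%, 13.7% and 24.3%. Mmp10 lost its XY call and Mmp16 gained one in the average.

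In the average, 14 of 18 calls held under every setting that included the gene (the filter on means under 6 left out Adamts6 and Adamtsl1), and those of Adamts9, Adamts10, Adamts19 and Mmp17 did not. The Mmp10 call in XY was lost in 14 of 22 settings and the Mmp17 call in XY in 7 of 23. Without a call in the average, Mmp16 gained one in 6 of 22 settings and Adamts4 in 2. Adamtsl2 and Mmp23 gained one in 1 setting each. Dim probe sets limit what 19 members with a mean under 6 can show.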
